A study of Mus musculus with 10 samples.

Results

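The 10 genes described here, Coq2, Coq3, Coq4, Coq5, Coq6, Coq7, Coq8a, Coq9, Coq10a and Coq10b, encode enzymes and accessory proteins that make or handle coenzyme Q (ubiquinone). They were picked by symbol out of the 49315 gene identifiers counted in mouse gastrocnemius muscle, and all 10 had enough counts to be analysed. Coq10a had been noted earlier in the comparison of genotypes in these same mice, so the genotype differences of the 10 genes are given as a description and not as a test. The muscles came from 10 male C57BL6J mice, 5 per genotype, all with a loxP-flanked aryl hydrocarbon receptor gene (Ahr). AHRfl mice had the floxed gene without Cre, and AHRmko mice also carried HSA-MCM, a Cre that tamoxifen activates and that the human skeletal actin promoter restricts to muscle fibres, so that other cell types in the muscle keep their Ahr. The study's methods describe the line as a cross of floxed Ahr and HSA-MCM mice and name C57BL6J for the other experiments. Every mouse of both genotypes breathed tobacco smoke for 16 weeks, 5 days a week and 2 h a day at 220 ± 80 mg/m3. Smoke started 4 weeks after tamoxifen per the sample labels (the methods text gives a shorter interval as well), and muscle was taken 72 h after the last exposure per the labels, the upper end of the range in the study's text. Air-exposed mice were not analysed here, and the study's text calls these mice aged without an age in the sources used here.

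Coenzyme Q is a lipid of the inner mitochondrial membrane that takes electrons from complex I, complex II and several other dehydrogenases and hands them to complex III. COQ2 joins the precursor of its benzoquinone head group to its isoprenoid tail. The ring is then modified by a set of enzymes that assemble into a complex with COQ4, COQ8A and COQ9. Skeletal muscle depends on this pathway, and inherited loss of single members leads to muscle and cerebellar disease. The receptor AHR is a transcription factor that binds DNA at sites with the core letters GCGTG.

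Promoter windows were printed for the gene whose genotypes did not overlap (Coq10a), for its paralogue (Coq10b) and for the member with the widest spread between mice (Coq8a). Each covers 250 bases before to 50 bases after an annotated start and is written 5′ to 3′ along the gene, with the AHR core GCGTG, or CACGC where it lies on the other strand, in capitals. The sequences are from RefSeq (GRCm38.p6), and the windows are chr10:128368931-128369230 on the minus strand for Coq10a, chr1:55052520-55052819 on the plus strand for Coq10b and chr1:180195971-180196270 on the minus strand for Coq8a.
Coq10a: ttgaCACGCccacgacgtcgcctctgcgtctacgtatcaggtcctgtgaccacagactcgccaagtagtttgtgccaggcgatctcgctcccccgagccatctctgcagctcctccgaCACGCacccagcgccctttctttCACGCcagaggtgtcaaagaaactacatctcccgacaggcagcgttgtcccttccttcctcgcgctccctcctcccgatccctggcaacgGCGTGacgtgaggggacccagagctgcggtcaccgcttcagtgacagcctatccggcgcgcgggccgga
Coq10b: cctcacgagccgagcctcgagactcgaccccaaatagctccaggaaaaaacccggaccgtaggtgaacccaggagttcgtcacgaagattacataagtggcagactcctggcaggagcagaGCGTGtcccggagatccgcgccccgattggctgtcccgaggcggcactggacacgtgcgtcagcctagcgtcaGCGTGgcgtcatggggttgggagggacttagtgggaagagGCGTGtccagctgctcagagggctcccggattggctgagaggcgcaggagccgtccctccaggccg
Coq8a: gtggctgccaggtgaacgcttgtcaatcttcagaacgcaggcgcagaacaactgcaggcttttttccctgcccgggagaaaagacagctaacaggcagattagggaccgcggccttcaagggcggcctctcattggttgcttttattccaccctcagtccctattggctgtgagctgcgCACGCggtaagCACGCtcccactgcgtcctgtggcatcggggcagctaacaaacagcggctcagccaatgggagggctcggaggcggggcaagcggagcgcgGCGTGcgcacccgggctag

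The Coq10a window held 4 matches of the AHR core, the Coq10b window 3 and the Coq8a window 3. The window of Coq9, whose genotypes overlapped, held 4 as well, and the mean over all windows was 0.495 matches. A further annotated start of Coq8a, from 180193436 to 180193735 on chromosome 1, held 2. Of the 10 members, 9 had entries in the promoter table, with 12 starts in all, and Coq5 was the member without one. The core was found on either strand in 9 of the 12 windows, compared with 32.4% of all 32851 promoter windows of the same length. These 9 windows belong to 7 of the 9 genes (Coq3, Coq4, Coq6, Coq8a, Coq9, Coq10a and Coq10b). A second annotated start of Coq10a, from 128369988 to 128370287 on chromosome 10, held none, although this window held the only match among the members of AAGGTCA, a site of oestrogen-related receptors, which 4.72% of all windows hold. The NRF1 motif, searched on both strands like the others, was found in 1 window (Coq3) and in 4.6% of all windows, and the ETS motif CCGGAAG in 1 window (Coq6) and in 8.86% of all windows. The core GCGTG holds the letters CG, and the windows set beside each other were not matched for CG content. These matches are a description of letters and show no binding.

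Levels are in CPM, which are counts relative to the TMM-normalized size of each library, and, where genes are compared with each other, as CPM per kilobase (kb) of annotated exon. Total counts were between 30393035 and 37954388 per mouse. Taken relative to these totals, without TMM normalization, a floor of 3 counts in a library amounted to 0.079 to 0.0987 CPM. Such limits cover counting error only, since the reads carry no molecular identifiers. No member was near them, since the lowest count of any member in any mouse was 207, for Coq4. The targeted gene, Ahr, had few counts (31 to 110 per mouse), with 2.02 ± 0.681 CPM (SD, n = 5) in AHRfl and 1.58 ± 0.443 CPM (SD, n = 5) in AHRmko muscle, and the groups overlapped. The counts sum all Ahr exons and do not show separately the exon flanked by loxP sites. Slow-fibre markers (Myh7, Tnnt1, Tnni1, Tnnc1, Myl2, Myl3, Atp2a2 and Tpm3, all 8 detected) summed to between 94.8 and 2019 CPM in AHRfl and between 252 and 2395 CPM in AHRmko mice. The summed levels of fast-fibre markers (122600 to 177900 CPM in AHRfl and 138300 to 175200 CPM in AHRmko mice) and of adipocyte, immune, endothelial and fibroblast markers also overlapped between the genotypes. Fewer cells of a type and less RNA per cell cannot be told apart in whole muscle.

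Per length, 3 genes made up most of the coenzyme Q gene RNA in every mouse. Coq8a, which encodes an atypical kinase-like ATPase that sustains the pathway, averaged 142 CPM per kb over the 10 mice (range 85.3 to 185). Coq9, which encodes the lipid-binding partner of COQ7, averaged 105 CPM per kb (96.1 to 109), and Coq10a, whose product binds coenzyme Q and is needed for its use in respiration, averaged 94.6 CPM per kb (82.6 to 116). Together these 3 genes gave between 76.9% and 82.7% of the summed level per kb of the 10 members.

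The enzymes that modify the ring, and the enzyme that makes their substrate, lay lower. Coq5, the C-methyltransferase, averaged 28.1 CPM per kb (23.8 to 30.4) and Coq2, the prenyltransferase that joins head group precursor and tail, 24.2 CPM per kb (19.4 to 29.3). Next came Coq3, the O-methyltransferase, at 9.75 CPM per kb, Coq7, a hydroxylase, at 9.57 CPM per kb, and Coq6, a flavin monooxygenase, at 6.23 CPM per kb. Coq10b averaged 3.74 CPM per kb and Coq4, whose product acts on the ring within the complex, 1.97 CPM per kb. Neighbours in this order overlapped in their ranges in 4 cases. Coq8a was above Coq9 in 8 of 10 mice, Coq9 above Coq10a in 9, Coq5 above Coq2 in 8 and Coq3 above Coq7 in 7. The other 5 neighbouring pairs kept their order in all 10 mice without overlap. The lengths cover the exons of all annotated transcripts, whether or not muscle uses them. Coq7 (6434 bases) and Coq2 (2624 bases) were close in CPM, at 61.6 and 63.5 over the 10 mice. Their places in the order thus rest on the annotated lengths.

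**Figure D1:**
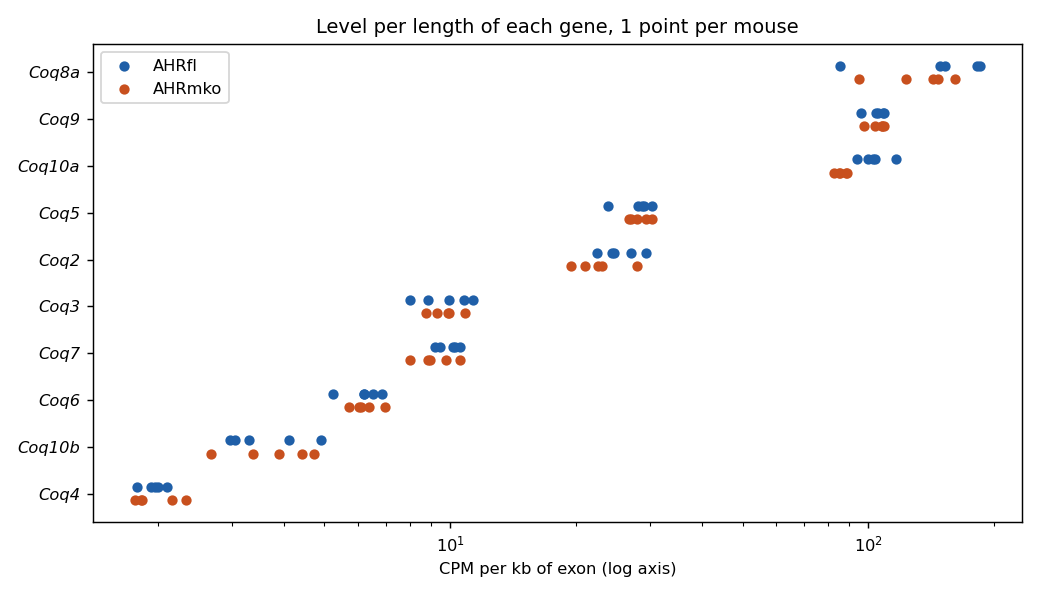
Level of each coenzyme Q gene in CPM per kb of exon (log axis), 1 point per mouse, AHRfl in blue and AHRmko in orange, ordered by the mean over 10 mice. Coq8a, Coq9 and Coq10a lie between 82.6 and 185 CPM per kb, and the other 7 genes lie at or below 30.4.

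Of the 2 pairs of paralogues, 1 copy prevailed in each. Coq10a made 96.5% ± 0.976 (SD, n = 5) of the summed Coq10a and Coq10b level per kb in AHRfl and 95.8% ± 0.814 (SD, n = 5) in AHRmko muscle, with ranges of 95% to 97.2% and 95% to 97.0%. Coq8a made 99.5% ± 0.126 of the summed Coq8a and Coq8b level in AHRfl and 99.5% ± 0.162 in AHRmko muscle (SD, n = 5 each). The methods do not say whether the libraries were stranded, and without strand reads from overlapping genes on opposite strands cannot be told apart. This touches Coq4, which shares 27.1% of its exon bases with Trub2, more than Coq10b (7.14%, E330011M16Rik), Coq8a (6.91%, Cdc42bpa), Coq6 (4.07%, Fam161b) or Coq9 (1.24%, Ciapin1). Coq2, Coq3, Coq5, Coq7 and Coq10a share no exon bases with another gene, and no stretch of 100 bases in Coq10a occurs in another annotated transcript.

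Deletion of AHR in muscle fibres was compared with the floxed controls for each gene under the same smoke exposure. Coq10a (ENSMUSG00000039914, GRCm38 chromosome 10, 128363100 to 128368997, minus strand) was at 266, 241, 257, 264 and 299 CPM in AHRfl mice 11, 12, 13, 15 and 33. It was at 219, 213, 228, 229 and 220 CPM in AHRmko mice 8, 9, 19, 22 and 34. All 5 AHRmko values lay below the lowest AHRfl value, and the AHRmko mice were closer to each other than the AHRfl mice were. The means were 265.5 ± 21.4 and 221.4 ± 6.65 CPM (SD, n = 5 each), which is -0.26 on the log2 scale (standard error, SE, 0.07). Coq10a was the only 1 of the 10 members whose genotypes did not overlap, whereas 1.4% of all 14714 genes tested did not overlap, in either direction, 0.714% with lower and 0.686% with higher values in AHRmko. These values are those by which the gene was noticed, and they carry no test here.

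Coq10b, the paralogue, did not show this split. It was at 14.3, 23.6, 19.8, 14.7 and 15.9 CPM in AHRfl mice 11, 12, 13, 15 and 33 and at 12.8, 16.2, 18.8, 22.7 and 21.3 CPM in AHRmko mice 8, 9, 19, 22 and 34. The groups overlapped almost completely, and the fitted difference on the log2 scale was 0.05 (SE 0.18), with a 95% interval from -0.33 to 0.44. With 1 mouse left out in turn it ran from -0.03 (without AHRmko 22) to 0.18 (without AHRfl 12), with the other sign in 4 of 10 fits. With the slow-fibre score as covariate it was 0.14, and with the OXPHOS mean (both explained below) it was 0.01. The interval reaches as far down as the Coq10a difference, so the paralogues are not shown to differ in their genotype difference, and the difference between them was not tested.

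Coq8a (ENSMUSG00000026489, chromosome 1, 180165238 to 180199602, minus strand) varied most between mice. It was at 784, 452, 805, 962 and 979 CPM in AHRfl mice 11, 12, 13, 15 and 33 and at 850, 650, 754, 775 and 503 CPM in AHRmko mice 8, 9, 19, 22 and 34. The lowest mice were AHRfl 12 and AHRmko 34, and the groups overlapped. The means were 796 ± 212 and 706 ± 134 CPM (SD, n = 5 each), and the fitted difference on the log2 scale was -0.17 (SE 0.2), with a 95% interval from -0.62 to 0.28. With 1 mouse left out in turn it ran from -0.32 (without AHRfl 12) to -0.07 (without AHRmko 34), and it was -0.10 without AHRfl 15 and -0.09 without AHRfl 33. With the OXPHOS mean as a covariate the direction turned (0.10), and with the slow-fibre score it was -0.29.

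The remaining members overlapped between the genotypes as well. Coq2 was between 58.8 and 77.0 CPM in AHRfl and between 50.9 and 73.6 CPM in AHRmko mice (log2 fold change -0.16, SE 0.1). Coq7 was between 59.1 and 68.0 CPM in AHRfl and between 51.5 and 67.8 CPM in AHRmko mice (log2 fold change -0.11, SE 0.08). Without AHRmko 34 the difference was -0.25 for Coq2 and -0.06 for Coq7, and with the OXPHOS mean as a covariate it was -0.26 and -0.0039. The other 5 (Coq3, Coq4, Coq5, Coq6 and Coq9) had log2 fold changes between -0.01 and 0.02. With the OXPHOS mean as a covariate these were 0.13 for Coq3, whose sign turned, 0.11 for Coq4, 0.12 for Coq6, 0.07 for Coq5 and 0.06 for Coq9. Coq9 was at 319.6 ± 15.8 CPM in AHRfl and 320.8 ± 14.1 CPM in AHRmko muscle (SD, n = 5 each), with the narrowest 95% interval of the 10 members, from -0.13 to 0.14.

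**Figure D2:**
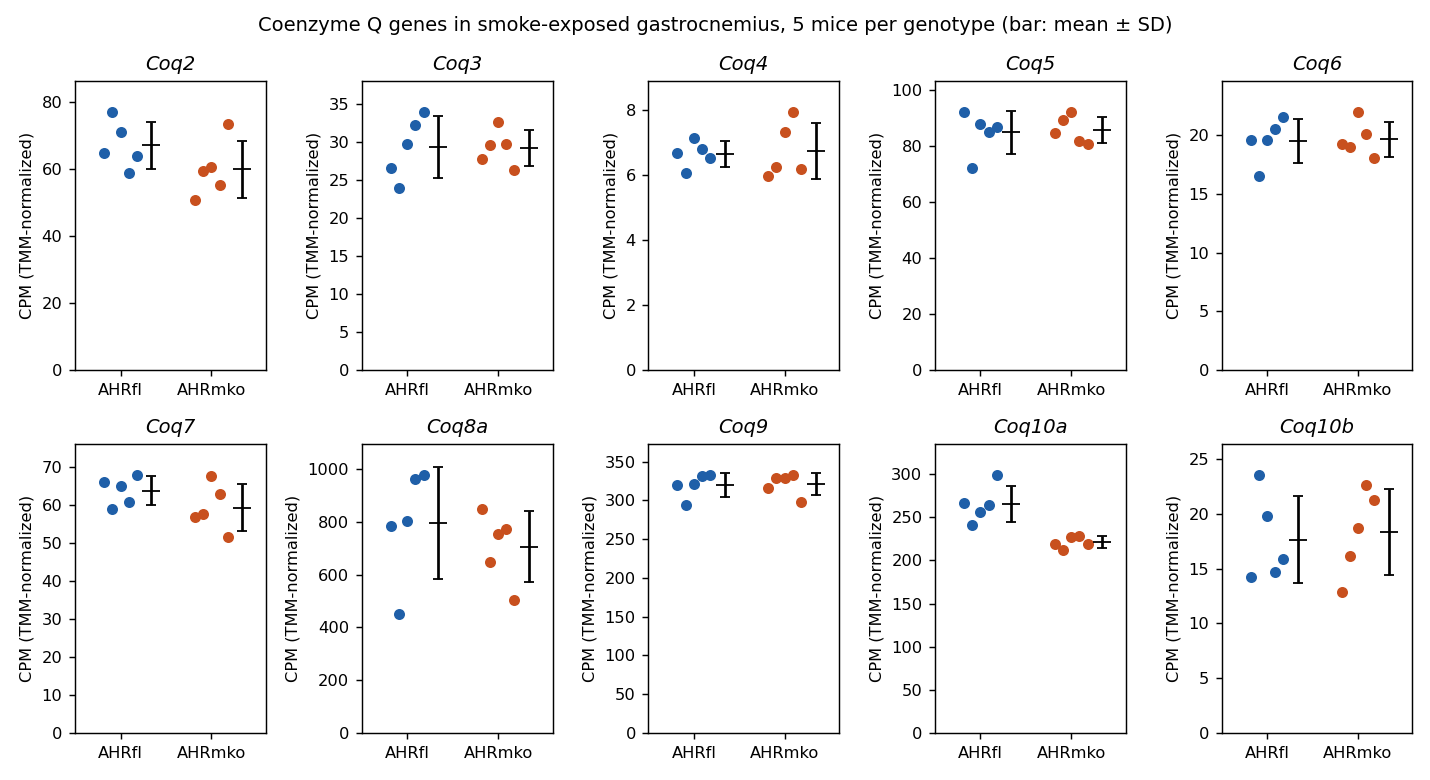
CPM of each of the 10 coenzyme Q genes in the gastrocnemius of smoke-exposed AHRfl (blue) and AHRmko (orange) mice, 1 point per mouse, with the mean ± SD as bars (n = 5 per genotype) and axes from 0. The genotypes separate for Coq10a (241 to 299 CPM against 213 to 229 CPM) and overlap for the other 9 genes.

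As a group, 5 members were higher and 5 lower in AHRmko muscle, with a median log2 fold change of 0.0001, beside 0.01 for all genes tested. This split changed with the setting. With unscaled library sizes only Coq4 and Coq10b were higher, and without AHRfl 12 only Coq10b was. With the OXPHOS mean as a covariate only Coq2, Coq7 and Coq10a were lower. By edgeR 0 of the 10 members passed an adjusted p of 0.05, as against 0.0068% of all genes, and 1 of 10 (Coq10a) had an unadjusted p under 0.05, as against 6.61% of all genes. DESeq2 put 1 of the 10 members (Coq10a) under an adjusted p of 0.05, as against 0.193% of the 10858 genes to which it gave an adjusted p. Nothing is read from these counts, since the comparison of genotypes is where Coq10a was noticed.

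In the rest of the pathway no gene passed the test between the genotypes. Of 8 further coenzyme Q synthesis genes, 7 could be tested and 0 had an adjusted p under 0.05 (edgeR) or an unadjusted p under 0.05. Pdss1 and Pdss2, the subunits of the synthase that builds the isoprenoid tail, had log2 fold changes of 0.03 and -0.02 (standard errors 0.11 and 0.06). Coq8b had -0.0017 (0.13), Hpdl, which acts in head group supply, -0.20 (0.3), and Fdxr, which passes electrons towards COQ6, 0.09 (0.21). The mitochondrial phosphatase gene Pptc7 had -0.04 (0.1) and Stard7, a lipid carrier gene, -0.06 (0.08). Fdx1l, a mitochondrial ferredoxin gene, had 4 to 24 counts and was removed by the filter. All 8 mevalonate pathway genes, which supply the tail, were tested, and their log2 fold changes lay between -0.14 (Fdps) and 0.15 (Idi1), 3 higher and 5 lower.

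**Figure D3:**
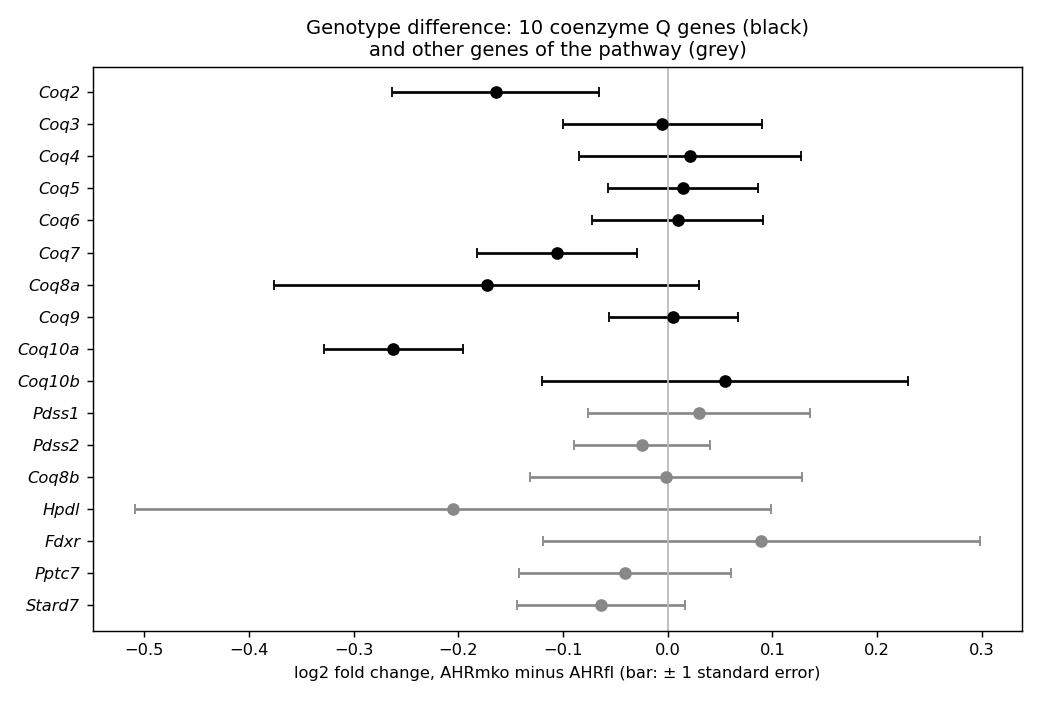
Log2 fold change (AHRmko minus AHRfl) of the 10 coenzyme Q genes (black) and of 7 further genes of the pathway (grey), with bars of ± 1 standard error from edgeR (n = 5 mice per genotype). Coq10a, which was noticed in this same comparison, is the lowest, at -0.26 (standard error 0.07). Hpdl is at -0.20 (standard error 0.3).

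The enzymes on either side of coenzyme Q were compared in the same way. Dehydrogenases other than complex I that pass electrons to it had 5 of 10 tested genes higher, from -0.12 (Sdhc, a complex II subunit) to 0.44 (Prodh, proline dehydrogenase). Complex III, which oxidizes it, had 8 of 9 subunits lower, with a median of -0.10 and a range from -0.20 (Uqcrfs1) to 0.03 (Uqcrc2). Complex I had 35 of 36 subunits lower, with a median of -0.09. Over all 74 nuclear-encoded subunits of oxidative phosphorylation (OXPHOS), 70 were lower (48.5% of all genes tested were), and the median was -0.09. By edgeR 0 had an adjusted p under 0.05 and 7 had an unadjusted p under 0.05, where 6.61% of all genes did. The genotypes separated without overlap in 0 of the 74, as against 1.4% of all genes. The mean log2 CPM of the 74 per mouse overlapped, from 8.086 to 8.227 in AHRfl and from 7.943 to 8.226 in AHRmko. The subunits share mice and libraries, so they are not separate observations. With the OXPHOS mean of each mouse as a covariate the Coq10a difference was -0.21, and it was -0.29 when the slow-fibre score took that place.

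The spread between mice of 1 genotype differed widely among the members. On the log2 scale, Coq8a had a within-genotype SD of 0.38, larger than that of 88.8% of 89 genes of like level, and Coq10b had 0.32, larger than 92.7% of 2173 genes of like level. Coq9 had 0.07, larger than 6.23% of the genes of like level. Coq10a had 0.09, which is part of the comparison in which it was noticed and is not ranked here. The other 6 members lay between 0.11 and 0.18.

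The members were then compared with OXPHOS genes mouse by mouse, after the genotype means had been removed so that the genotype difference plays no part. The OXPHOS mean is the average log2 CPM of the 74 subunits, and it had a within-genotype SD of 0.09. The mean of the 10 coenzyme Q genes followed it with Pearson's r = 0.83 and Spearman's rho = 0.90 over 10 mice, and r was 0.82 without the 2 mice farthest from the median (AHRmko 19 and 34). No p is given for this mean, since the genes were chosen with results of these data known. AHRmko 19, AHRmko 22, AHRfl 15 and AHRfl 33 were above the mean of their genotype in both, and AHRfl 11, AHRfl 12, AHRmko 8, AHRmko 9 and AHRmko 34 were below it in both. AHRfl 13 was above it in coenzyme Q genes and below it in OXPHOS genes.

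The sign of r differed among the members, and differences between members were not tested. Coq6 (r = 0.87), Coq7 (0.85), Coq3 (0.79), Coq9 (0.74), Coq4 (0.68), Coq8a (0.65), Coq10a (0.61) and Coq5 (0.46) were positive, whereas Coq10b (-0.13) and Coq2 (-0.51) were negative. Spearman's rho had the same sign for each and was 0.96 for Coq6, 0.87 for Coq7, 0.84 for Coq3 and 0.82 for Coq10a. In two-sided exact permutation tests within genotypes (n = 10 mice), Coq3, Coq6, Coq7, Coq8a, Coq9 and Coq10a had a positive r with an unadjusted p under 0.05, 6 of the 10 members, as against 5.29% of the 14640 genes outside the OXPHOS list. With a negative r there were 0 of 10 members and 5.84% of the genes. The 6 members with a positive r were also related to each other (r between 0.57 and 0.92, given below). They therefore do not count as 6 separate results. By the edgeR slope on the OXPHOS mean, added after seeing the data, 4 of 10 members (Coq3, Coq6, Coq7 and Coq8a) had a positive slope with an unadjusted p under 0.05, as against 4.52% of the genes, and Coq9 and Coq10a were not among them. No gene of the 14640 had an adjusted p under 0.05 by edgeR either. The p of Coq6 was 0.000139 by the exact permutation test and 0.12 after Benjamini-Hochberg adjustment over all 14640 genes, and no gene of the 14640 had an adjusted p under 0.05. The relation of Coq5 weakened to r = 0.21 without AHRmko 19 and 34 and that of Coq7 to 0.59, while that of Coq10a strengthened to 0.82.

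The slow-fibre score, the mean log2 CPM of the 8 slow-fibre markers, varied far more, with a within-genotype SD of 2.01, from 2.42 (AHRfl 12) to 7.97 (AHRmko 8). Per the methods, the red portion of the gastrocnemius was dissected for fibre bundles and the rest of the muscle served for mitochondria or was frozen for later use. The methods do not name the portion that the RNA came from, and its part in the score was not tested. Coq8a rose with the score (r = 0.82, rho = 0.93 over 10 mice, and r = 0.77 without AHRfl 15 and 33). The exact permutation p was 0.00382 for r (n = 10 mice) and 0.144 after adjustment over 14706 genes. A slope fitted by edgeR's quasi-likelihood test with genotype in the model, added after seeing the data, was 0.15 log2 units of Coq8a per unit of the score (SE 0.03), and its p adjusted over 14706 genes was 0.0394. By that test 2.06% of all genes had a positive slope with an adjusted p under 0.05 and 1.37% a negative one, and among the members Coq8a was the only 1 of 10.

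This call rested on the full set of mice. With 1 mouse left out in turn, the slope of Coq8a stayed between 0.10 and 0.18 and its adjusted p lay between 0.0141 and 0.134. The adjusted p was above 0.05 without AHRfl 11 (0.0518), AHRfl 12 (0.134), AHRfl 15 (0.107), AHRfl 33 (0.122), AHRmko 8 (0.089), AHRmko 19 (0.0517) or AHRmko 22 (0.0637). It was under 0.05 in the 3 other fits, without AHRfl 13, AHRmko 9 or AHRmko 34.

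Coq2 had a relation of the opposite sign with the score. Its values were 64.7, 77.0, 71.1, 58.8 and 63.8 CPM in AHRfl mice 11, 12, 13, 15 and 33 and 50.9, 59.3, 60.5, 55.1 and 73.6 CPM in AHRmko mice 8, 9, 19, 22 and 34. The highest mouse of each genotype was the one lowest in Coq8a. Its correlation with the slow-fibre score was r = -0.77 (rho = -0.79, and r = -0.73 without AHRfl 15 and 33), with an exact permutation p of 0.0119 (n = 10 mice) that became 0.177 after adjustment over all genes. The edgeR slope was -0.07 per unit (standard error 0.02, adjusted p = 0.0785), which missed the threshold. With 1 mouse left out in turn the adjusted p lay between 0.0226 (without AHRmko 9, the 1 fit in which it was under 0.05) and 0.281 (without AHRfl 12).

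Coq10a (r = 0.67), Coq6 (0.66), Coq3 (0.63) and Coq9 (0.58) were positive with the slow-fibre score, and Coq4 (0.30), Coq7 (0.28) and Coq5 (0.22) were weakly so. Coq10b was negative (-0.48). At an unadjusted exact permutation p under 0.05 there were 2 of 10 members with a positive r (Coq8a and Coq10a), as against 9.3% of 14706 genes, and 1 of 10 with a negative r (Coq2), as against 9.58%. By the edgeR slope on the score Coq10a was not under 0.05 (unadjusted p = 0.0832). Coq3 was (unadjusted p = 0.0407 by the edgeR slope, against 0.0971 by permutation). The mean of the 10 members had r = 0.48 (rho = 0.45), which was 0.22 without AHRfl 12 and 0.71 without AHRmko 8. The slow-fibre score and the OXPHOS mean were themselves related, with r = 0.56 (two-sided exact permutation test, p = 0.0876, n = 10 mice) and rho = 0.65 (p = 0.0403 by the same exact permutation test), so that the relations with each are not separate.

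**Figure D4:**
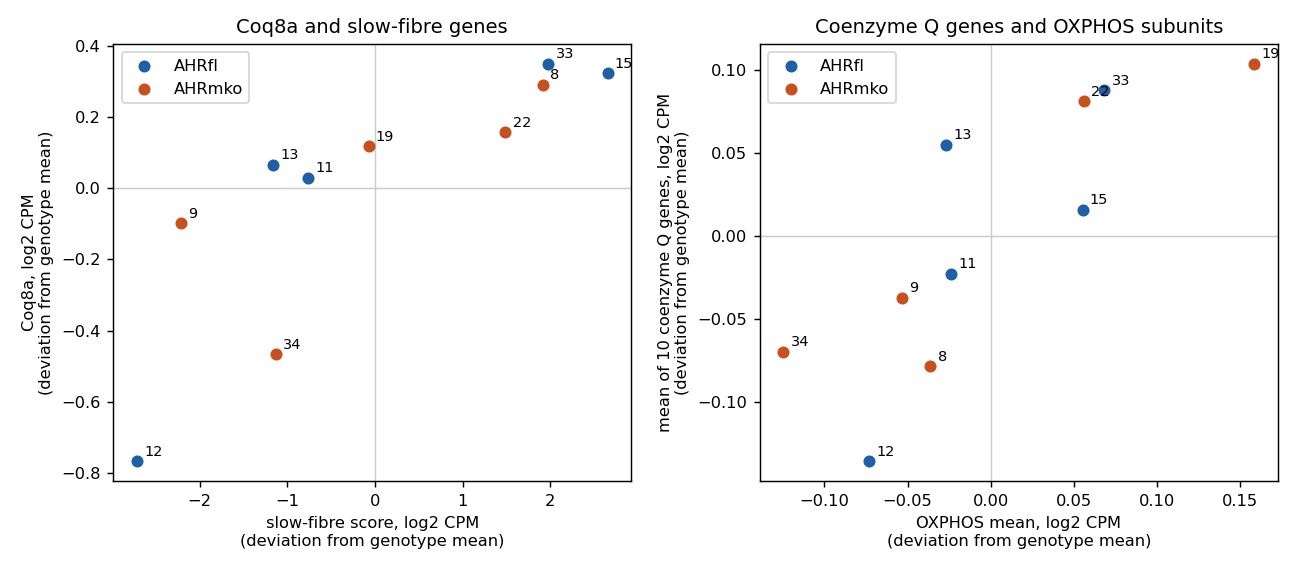
Left, Coq8a against the slow-fibre score, and right, the mean of the 10 coenzyme Q genes against the mean of 74 OXPHOS subunits, all in log2 CPM as deviations from the genotype mean, with 1 point per mouse labelled by its number. The points run from low left to high right (r = 0.82 left, 0.83 right), and AHRfl mouse 12 is lowest on the vertical axis of each plot.

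Among themselves most members had positive relations. Of 45 pairs, 30 had a positive r over the 10 mice (deviations from the genotype means), and the median r was 0.58. Of these 30, 4 turned negative without 2 mice, namely Coq5 with Coq8a (from 0.67 to -0.47), with Coq9 (from 0.69 to -0.20) and with Coq10a (from 0.46 to -0.07), each without AHRfl 12 and AHRmko 34, and Coq4 with Coq10b (from 0.31 to -0.27 without AHRmko 8 and 22). The 15 pairs among Coq3, Coq6, Coq7, Coq8a, Coq9 and Coq10a had r between 0.57 and 0.92, the highest being that of Coq3 with Coq6. Without the 2 mice farthest from the median of the first gene of each pair, all 15 stayed positive, between 0.18 and 0.84, and 13 were above 0.5. The 2 others fell to 0.18 (Coq8a with Coq9, 0.86 with all mice, without AHRfl 12 and AHRmko 34) and to 0.22 (Coq3 with Coq10a, 0.73 with all mice, without AHRfl 12 and 33). Coq2 was negative with 8 of its 9 partners and Coq10b with 7 of 9, and these genes were positive with each other (r = 0.72). The points share libraries and normalization, so these values are a description.

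The negative relations of Coq2 rested in large part on AHRfl 12 and AHRmko 34. Without these mice r changed sign with 6 of the 8 partners (for example from -0.72 to 0.07 with Coq9 and from -0.41 to 0.61 with Coq5), and it stayed negative with Coq8a (from -0.85 to -0.66) and Coq10a (from -0.39 to -0.11). Of the 7 negative relations of Coq10b, 4 turned positive without 2 mice, among them that with its paralogue Coq10a (from -0.27 to 0.28 without AHRfl 12 and 33).

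**Figure D5:**
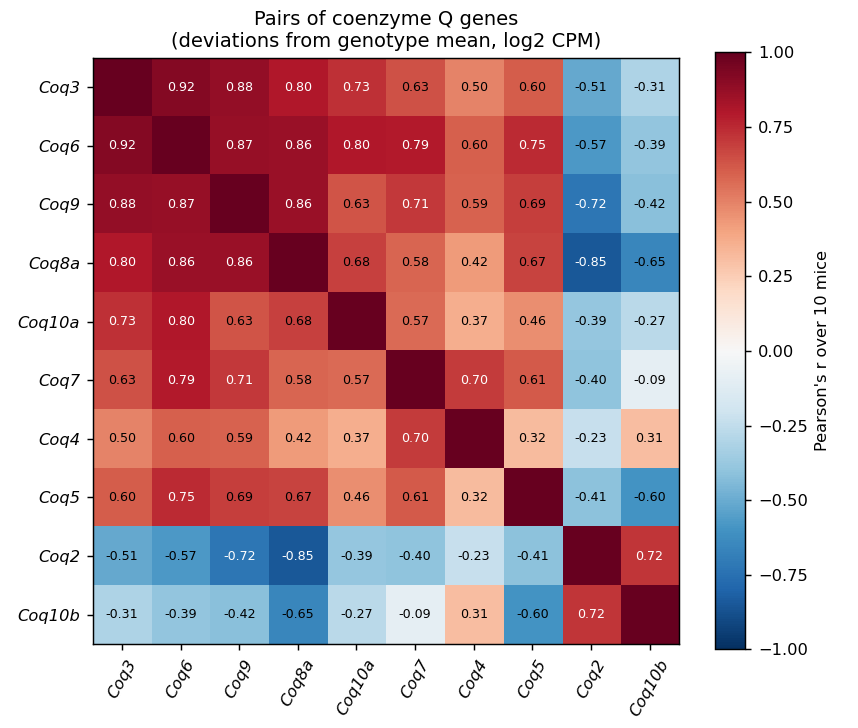
Pearson's r over 10 mice for each of the 45 pairs of coenzyme Q genes, computed on log2 CPM as deviations from the genotype mean (red positive, blue negative). The block of Coq3, Coq6, Coq9, Coq8a, Coq10a and Coq7 holds r from 0.57 to 0.92 (0.18 to 0.84 without 2 mice), and most values of Coq2 and Coq10b are negative with all 10 mice, although 6 of 8 and 4 of 7 of these turn positive without 2 mice.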

How the data were processed

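RNA of 10 gastrocnemius muscles was sequenced by the authors as poly(A)-selected paired-end libraries. Per the labels and methods, reads were trimmed with Trimmomatic 0.36, mapped to GRCm38 with STAR 2.5.2b and counted on exons per gene, and the raw counts were deposited without normalization, 1 column per mouse, all of which were used. The Ensembl release is not given in the sources used here, and counting by strand is given only for the case that a stranded library was made, without saying whether it was.

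The members and gene lists were chosen with earlier results of these data known. Names, positions and exon lengths came from GENCODE M21 of GRCm38 (49056 of 49315 identifiers matched), and promoters from RefSeq (GRCm38.p6). The analysis used edgeR 4.0.16 (R 4.3.3). Its filterByExpr (minimum count 10, minimum total 15) set the genes tested, TMM set the library sizes, and genotypes were compared by the robust quasi-likelihood test with Benjamini-Hochberg adjustment over 14714 genes. Log2 CPM used a prior count of 2. Relations between mice used deviations from genotype means and two-sided exact permutation over the 14400 reorderings within genotypes (Python 3.11.15, numpy 2.4.6). A permutation p planned for the mean of the members, and adjustment over the members alone, were left out. Genes of like level are those within 0.5 in mean log2 CPM. The genes named are the members, genes whose exons overlap theirs, the slow-fibre markers, the other synthesis genes, Ahr, the highest and lowest gene of the lists around coenzyme Q and the 5 genes most like the members' mean and Coq10a. The fits were tested on simulated data. The alternatives tried were limma-voom (limma 3.58.1), the Wald test of DESeq2 1.42.0, its size factors used within edgeR, unscaled library sizes, no filter, at least 10 counts in every mouse, the slow-fibre score or the OXPHOS mean as a covariate, leaving out each mouse and, for the relations, a prior count of 0.5, log2 CPM without removal of genotype means and lists without complex III, Coq10a and Coq10b. The edgeR slopes were added after seeing the data. The summed level of 1 further list of cell type markers is not reported here.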

Additional observations from a re-analysis of the deposited data

Results flagged for a closer look

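Coq8a in AHRfl mouse 12 stood far from the other AHRfl mice. At 452 CPM it was the lowest of 5. On the log2 CPM scale its gap to the next mouse was 0.7135 of the range of the group, just above the limit of 0.71 for 5 samples, whereas on the CPM scale it was 0.631, below that limit. This was 1 of 20 groups of mice examined (10 genes in each genotype), where chance gives about 1. The same mouse had the lowest slow-fibre score of the 10 mice, 2.42, and its part in the Coq8a value was not tested. Without it the log2 fold change of Coq8a between genotypes was -0.32 instead of -0.17, and without AHRmko mouse 34 it was -0.07.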

How the results depend on the processing

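Of the members, 0 passed an adjusted p of 0.05 by edgeR and 1 by DESeq2 (Coq10a, adjusted p 0.0497, against 0.606 in edgeR and a range up to 0.619 over the other settings and of 0.407 to 0.994 with 1 mouse left out), and by edgeR 0 did with any mouse left out (DESeq2 was not run with mice left out). The log2 fold change of Coq10a ran from -0.29 to -0.21 over the settings and from -0.30 to -0.22 with 1 mouse left out. That of Coq2 ran from -0.26 to -0.10 and that of Coq7 from -0.13 to -0.0039 over the settings. That of Coq8a turned to 0.10 with the OXPHOS mean as a covariate. The median over the members ran from -0.03 to 0.06 over the settings and from -0.06 to 0.02 with 1 mouse left out. The correlation of the members' mean with the OXPHOS mean was 0.91 with library size alone and between 0.79 and 0.89 with 1 mouse left out. That with the slow-fibre score was 0.72 with library size alone and between 0.22 and 0.71 with 1 mouse left out. The slope of Coq8a on the slow-fibre score was 0.17 with library size alone (adjusted p 0.0435) and between 0.10 and 0.18 with 1 mouse left out, where its adjusted p was above 0.05 in 7 of 10 fits. For each of these changes the cause was not tested. No paired analysis was possible because no animal number occurs in both genotypes and the labels give no litters. Nothing says which mice shared a litter or a cage, and p-values measure the spread between these 10 muscles.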

Other observations

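Over all 14704 genes outside the members, those whose deviations from the genotype mean were most like the mean of the 10 coenzyme Q genes over the 10 mice were 9430038I01Rik (Pearson's r = 0.98), Alkbh7 (0.96), Kcnn4 (0.95), Fahd2a (0.95) and Nagk (0.94). The genes most like Coq10a alone were Tspan11 (0.96), Idua (0.94), 9630013K17Rik (0.94), Nek8 (0.93) and Dok5 (0.93). The lists share no gene. The mice share libraries and normalization and the genes were ranked among many, so these values are a description with no test.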
